A study of Homo sapiens with 12 samples.

Results

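Short nucleic acids are delivered to cells with a cationic lipid, and a control oligonucleotide shows what delivery of an RNA does apart from the property under study. The control examined here is the RNA (uuaccc)4, which cannot fold into a G-quadruplex (G4), a 4-stranded structure of stacked guanines. Its 3 arrays were set against the 3 arrays of cells that received the transfection reagent alone, so 6 of the 12 arrays of the series entered the comparison directly, and all 41091 of 54675 probe sets that name a single gene were used, which gave 19775 genes. The groups were (uuaccc)4 and the reagent alone (lipofectamin only), and the others of the series were the RNA (uuaggg)4 and the DNA aptamer AS1411, both G4-forming. Each treatment was given to the human cancer cell lines PC-3 (prostate), HBC4 (breast) and MKN74 (gastric), as the labels name them, on 1 array per line and treatment. All cells, those of the reagent group included, were exposed to Lipofectamine RNAiMAX by reverse transfection, with 300000 cells per transfection. They were kept on a low-adhesion surface in 3D culture until harvest at 72 h. The oligonucleotide groups received about 100 pmol oligonucleotide per well, and the labels give no oligonucleotide amount for the reagent group. Cells without reagent were not among the groups, so an effect of the reagent itself was not analysed here.

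Cells recognise foreign RNA through the cytosolic helicases RIG-I (RIGI) and MDA5 (IFIH1), the endosomal receptor TLR3 and the kinase PKR (EIF2AK2). Their signalling switches on type I and type III interferon genes, and interferon in turn switches on interferon-stimulated genes such as ISG15, the IFIT genes and the OAS genes. Many of these genes code for antiviral proteins and for the sensors themselves.

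All values are log2 expression values centred so that each probe set has a median of 0 over the 12 arrays. A value therefore gives an array's place relative to the other arrays for that gene and no absolute level, and levels of different genes cannot be set against each other. Arrays of 1 line correlated at 0.892 or more across the 19775 genes, each taken at 1 chosen probe set. Of the markers listed for prostate epithelium 4 of 7 measured were highest in PC-3, and of those for breast epithelium 6 of 9 were highest in HBC4. Of the gastric markers only 2 of 9 were highest in MKN74 and 5 of 9 were highest in PC-3, so the gastric label of MKN74 was not borne out by these markers. Centring hides whether a marker was absent. Between (uuaccc)4 and reagent arrays, 0 of the 9 gastric, 9 breast, 7 prostate and 7 epithelial markers measured differed by 2-fold or more in any line. Of the 6 endothelial markers 1 did, KDR, a growth factor receptor gene, with a log2 difference of -1.02 in MKN74, and 0 of the 7 fibroblast and 5 leukocyte markers measured did.

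No gene passed the test over the 3 lines. In limma's paired fit 0 of 19775 genes had an adjusted p under 0.05 (0%), and the smallest adjusted p was 1.00. At an unadjusted p under 0.05 there were 567 genes, or 2.87%, of which 248 were higher and 319 lower with (uuaccc)4. Without the PC-3 reagent array this count was 981, with 0 genes called and a smallest adjusted p of 0.103. The fit was narrow enough to bound most genes: the 95% interval of the mean difference lay within 2-fold in either direction for 19709 genes (99.7%) and within 1.5-fold for 18486 (93.5%), with a median half-width of 0.26 on the log2 scale. Only MALAT1, a nuclear long noncoding RNA, had a mean difference of 2-fold or more, and that value came from 1 line. Of all genes, 1952 (9.87%) were higher with (uuaccc)4 in all 3 lines and 2709 (13.7%) were lower in all 3. With 3 pairs an exact sign-flip permutation test of a single gene cannot give a two-sided p below 0.25.

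Across genes, the differences of the lines were hardly correlated. Pearson's r between the (uuaccc)4 minus reagent differences was -0.08 for PC-3 and HBC4, -0.03 for PC-3 and MKN74 and 0.03 for HBC4 and MKN74, and Spearman's rho was -0.09, -0.04 and 0.06 in the same order. These describe 19775 genes, which are not independent of each other, and each line difference carries the error of a pair of single arrays.

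Few genes were 2-fold or more apart in any line. (uuaccc)4 and the reagent differed by 2-fold or more at 7, 22 and 34 genes in PC-3, HBC4 and MKN74. (uuaggg)4 against the reagent gave 164, 152 and 124 genes in the same lines, and AS1411 against the reagent gave 220, 237 and 152. Against (uuaccc)4 in place of the reagent the counts were 150, 158 and 128 for (uuaggg)4 and 192, 198 and 212 for AS1411. These comparisons share arrays with each other, so their counts are not independent. The pair of G4 arrays, which shares no array with the comparison described here, differed at 28, 15 and 40 genes. The SD over all genes of the (uuaccc)4 minus reagent difference was 0.19, 0.23 and 0.22 in PC-3, HBC4 and MKN74, against 0.22, 0.23 and 0.24 for (uuaggg)4 minus AS1411. With 1 array for each treatment and line these counts have no replicate check. They also moved with the processing: (uuaccc)4 against the reagent gave 8, 101 and 22 genes in PC-3, HBC4 and MKN74 after quantile normalization and 5, 5 and 14 with averaged probe sets. After quantile normalization, (uuaggg)4 against the reagent gave 140, 283 and 119, AS1411 against the reagent 185, 469 and 126, and the pair of G4 arrays 22, 77 and 39. With averaged probe sets these counts were 115, 102 and 83, then 124, 162 and 99, then 5, 11 and 17.

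**Figure D1:**
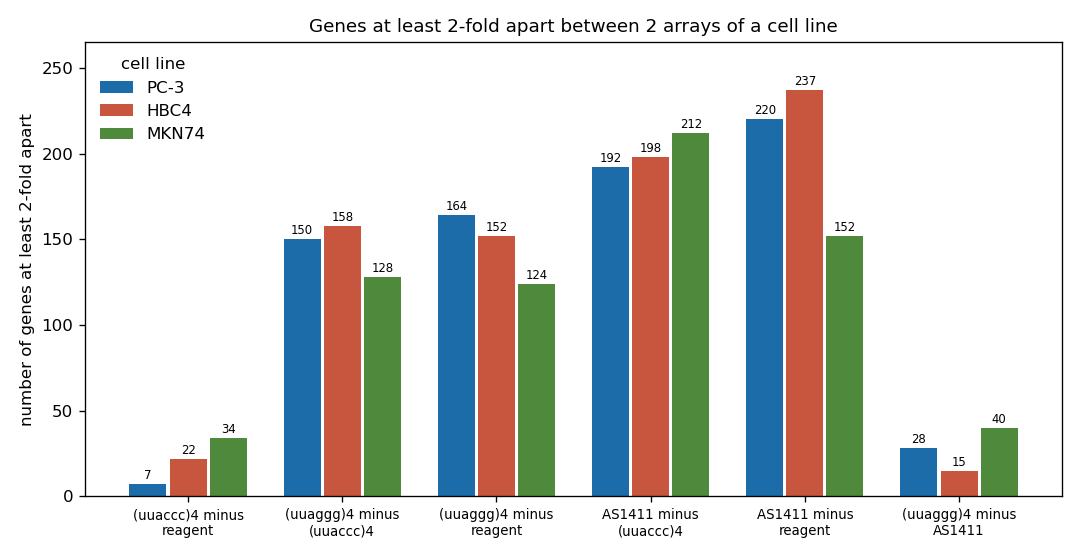
Number of genes at least 2-fold apart (vertical axis) between the arrays of each treatment pair (horizontal axis), 1 bar per cell line, of 19775 genes and 1 array per treatment and line. The pair (uuaccc)4 and reagent alone counts 7, 22 and 34 genes in PC-3, HBC4 and MKN74, beside 28, 15 and 40 genes for the pair of G4 oligonucleotides, and stands below every pair of a G4 oligonucleotide with (uuaccc)4 or the reagent.

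The RNA sensors did not pass the test in any direction. RIGI had centred log2 values of -0.38, 0.66 and 1.42 in PC-3, HBC4 and MKN74 with (uuaccc)4, against -0.12, 0.57 and 1.41 with reagent alone. IFIH1 had 0.09, 0.65 and 0.98 with (uuaccc)4, against 0.41, 0.49 and 0.96 with reagent alone. At the probe sets used for both helicase genes, the (uuaccc)4 array was below the reagent array in PC-3 and slightly above it in the other lines. TLR3 had -0.11, 1.93 and 0.44 with (uuaccc)4, against 0.45, 1.58 and -0.18 with reagent alone, which is the same order of signs with wider gaps. EIF2AK2, the kinase that halts translation on binding double-stranded RNA, had -0.21, 0.14 and 0.56 with (uuaccc)4, against 0.06, 0.15 and 0.66 with reagent alone. Each of these genes had 3 probe sets, whose signs were mixed in HBC4 for RIGI (-0.12 to 0.21) and IFIH1 (-0.51 to 0.17). Those of TLR3 ranged from -0.56 to 0.02 in PC-3 and were all higher in the other lines. Those of EIF2AK2 were all lower in PC-3 (-0.79 to -0.17) and MKN74 (-0.45 to -0.10), and 2 of 3 were higher in HBC4. Mean log2 differences were -0.05 ± 0.18 for RIGI, -0.04 ± 0.25 for IFIH1, 0.14 ± 0.62 for TLR3 and -0.12 ± 0.14 for EIF2AK2 (SD over the lines, n = 3). In each of these genes the SD between lines exceeded the mean. Over the 29 measured sensors and adaptors 0 were called, and the median log2 difference was -0.04 against -0.01 over all genes. Of the 29, 23, 16 and 12 were lower in PC-3, HBC4 and MKN74, beside 54.3%, 50.6% and 52.2% of all genes. DHX58, which codes for the helicase LGP2, had the smallest p of the list with a mean log2 difference of -0.29 ± 0.17 (SD, n = 3) and an adjusted p of 1.00 in limma's fit.

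Interferon genes were likewise not called. IFNB1, the type I interferon that is produced early in an RNA response, had centred log2 values of 0.15, 1.18 and -0.01 in PC-3, HBC4 and MKN74 with (uuaccc)4, against 0.01, 0.73 and 0.29 with reagent alone. The type III interferon gene IFNL1 had -0.36, 0.63 and 0.70 with (uuaccc)4, against -0.17, 0.53 and 0.70 with reagent alone. Signs differed between lines in both genes. Over the 14 measured interferons and interferon receptors the median log2 difference was -0.02, with 0 called.

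Interferon-stimulated genes differed little between (uuaccc)4 and the reagent on average, and 0 were called. ISG15, a ubiquitin-like protein, had centred log2 values of 1.11, 0.56 and 0.52 in PC-3, HBC4 and MKN74 with (uuaccc)4, against 1.31, 0.49 and 0.61 with reagent alone. OAS3, a synthetase of the RNase L activator, had 0.51, 0.16 and 0.93 with (uuaccc)4, against 0.85, 0.09 and 0.91 with reagent alone. IFI44 had 2.79, 3.26 and 0.45 with (uuaccc)4, against 2.97, 2.97 and -0.05 with reagent alone. In the 3 genes the arrays of both groups overlapped, and each had at least 1 line with either sign. Over the 63 measured members the median log2 difference over the lines was -0.07. Of these, 1 was higher in all 3 lines and 10 were lower in all 3, beside 9.87% and 13.7% of all genes. The 95% interval lay within 2-fold for 46 of the 63 and within 1.5-fold for 26, and the intervals reached from -1.76 to 1.76 on the log2 scale. The spread behind them comes from all 12 arrays, those of the G4 oligonucleotides included: ISG15 had an SD of 0.14 over the lines in this comparison and an SE of 0.39 in the fit. In limma's fit of the 6 arrays alone, with 2 residual degrees of freedom, the interval lay within 2-fold for 63 of 63 and within 1.5-fold for 59, the bounds reached from -0.72 to 0.85, and 0 were called.

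By line the interferon-stimulated genes took different signs. In PC-3 60 of 63 were lower with (uuaccc)4 (95.2%, beside 54.3% of all genes lower and 45.6% higher there), with a median log2 difference of -0.25 and a range of -0.93 to 0.25. The lowest were the chemokine gene CXCL11 at -0.93, the transcription factor gene BATF2 at -0.71 and the chemokine gene CXCL10 at -0.55, and EPSTI1 was highest at 0.25. The other probe set of CXCL11 differed by 0.0074, so its low value rests on 1 of 2 probe sets. In HBC4 15 of 63 were lower (23.8%, beside 50.6% of all genes lower and 49.3% higher), with a median of 0.11 and a range of -0.27 to 1.13, where IFI16, a nucleic acid sensor, was highest. In MKN74 34 of 63 were lower (54.0%, beside 52.2% of all genes lower and 47.7% higher), with a median of -0.01, whose sign turned when each array was centred on its own median. Genes of this list are regulated together, so they are not independent observations, and with a single pair of arrays per line the PC-3 and HBC4 shifts were not tested as shifts. In limma's test of the difference between lines 0 of 19775 genes were called (0%).

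The same list in the other comparisons gives a scale for these values. The median log2 difference of (uuaggg)4 minus (uuaccc)4 was -1.77, -1.81 and -0.87 in the lines in the order above, and that of (uuaggg)4 minus reagent was -2.14, -1.47 and -0.89. For AS1411 it was -1.97, -1.98 and -1.09 against (uuaccc)4 and -2.28, -1.76 and -1.11 against the reagent. These comparisons share the (uuaccc)4 or reagent arrays with the one described here. MHC class I presentation genes were lower with (uuaccc)4 than with the reagent for 16, 5 and 12 of 17 genes in PC-3, HBC4 and MKN74, with medians of -0.10, 0.03 and -0.09. The shares of all genes lower there were 54.3%, 50.6% and 52.2%.

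**Figure D2:**
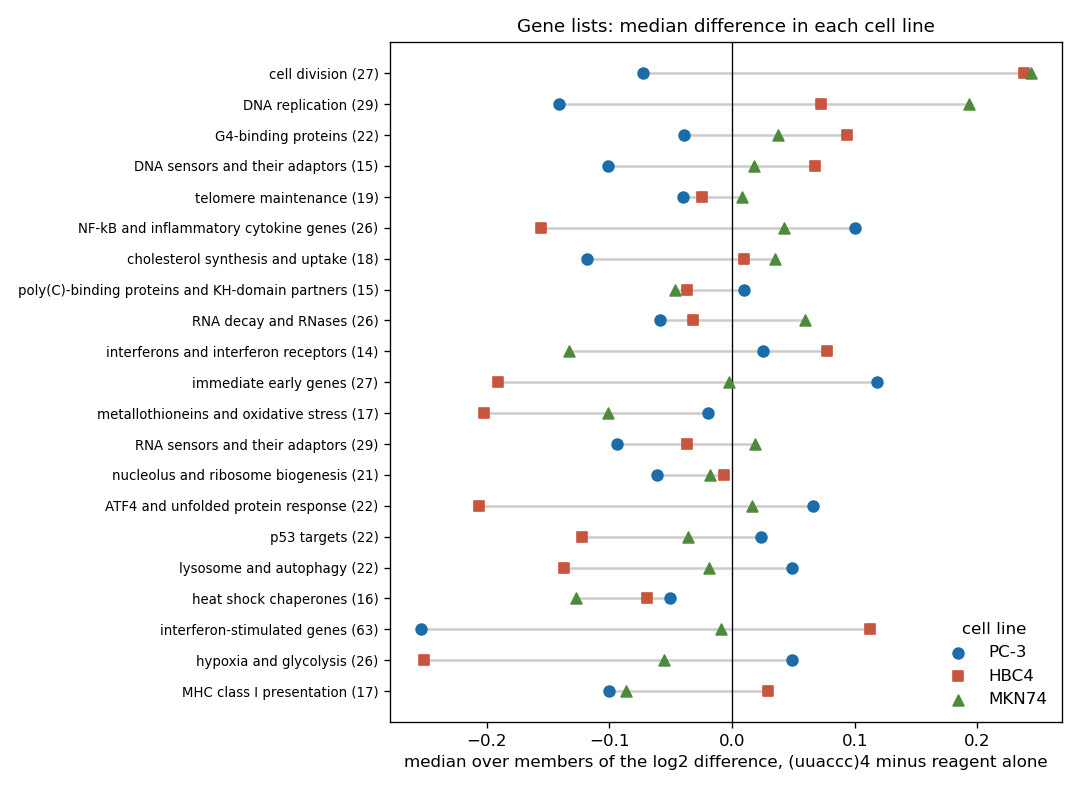
Median log2 difference, (uuaccc)4 minus reagent alone, of each gene list in PC-3, HBC4 and MKN74, with the measured members in brackets. Wide gaps between lines are seen for interferon-stimulated genes (-0.25 in PC-3, 0.11 in HBC4, -0.01 in MKN74), DNA replication (-0.14, 0.07, 0.19) and cell division (-0.07, 0.24, 0.24), and no member of any list was called.

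Genes of cell division were higher with (uuaccc)4 in HBC4 and MKN74 as a list, and none was called. All 27 measured were higher in both of these lines, with medians of 0.24 in HBC4 (range 0.10 to 0.45) and 0.24 in MKN74 (range 0.02 to 0.45), while 20 of 27 were lower in PC-3, with a median of -0.07. Of all genes, 49.3% were higher in HBC4 and 47.7% in MKN74, and 54.3% were lower in PC-3. MKI67, which codes for the proliferation antigen Ki-67, had centred log2 values of -2.18, -0.08 and 0.59 in PC-3, HBC4 and MKN74 with (uuaccc)4, against -2.53, -0.40 and 0.25 with reagent alone. Its reagent array was the lowest of the 4 treatments in each line, and 3 of its 4 probe sets shared the sign. The mean log2 difference was 0.34 ± 0.01 (SD, n = 3), with an unadjusted p of 0.00820 and an adjusted p of 1.00 in limma's fit. TOP2A, a DNA topoisomerase of dividing cells, had -2.67, 0.52 and -0.06 with (uuaccc)4, against -2.82, 0.06 and -0.29 with reagent alone, a mean difference of 0.28 ± 0.16 that did not pass either, and 2 of its 3 probe sets shared the sign. In all, 7 of the 27 were higher in all 3 lines and 0 were lower in all 3, beside 9.87% and 13.7% of all genes.

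For scale, cell division genes had median log2 differences of 0.29, 0.50 and 0.58 for (uuaggg)4 minus reagent and of 0.26, 0.65 and 0.61 for AS1411 minus reagent in PC-3, HBC4 and MKN74, comparisons that share the reagent arrays. DNA replication genes were higher with (uuaccc)4 for 26 of 29 in MKN74 and 22 of 29 in HBC4, with medians of 0.19 and 0.07, and lower for 25 of 29 in PC-3, with a median of -0.14. The shares of all genes were 47.7% and 49.3% higher in MKN74 and HBC4, and 54.3% lower in PC-3. In PC-3 the lowest were GINS2, a subunit of the replicative helicase complex, at -0.40 and ORC1, of the origin recognition complex, at -0.34. In MKN74 CDC45, which loads onto the replicative helicase, was highest at 0.40. No member was called.

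**Figure D3:**
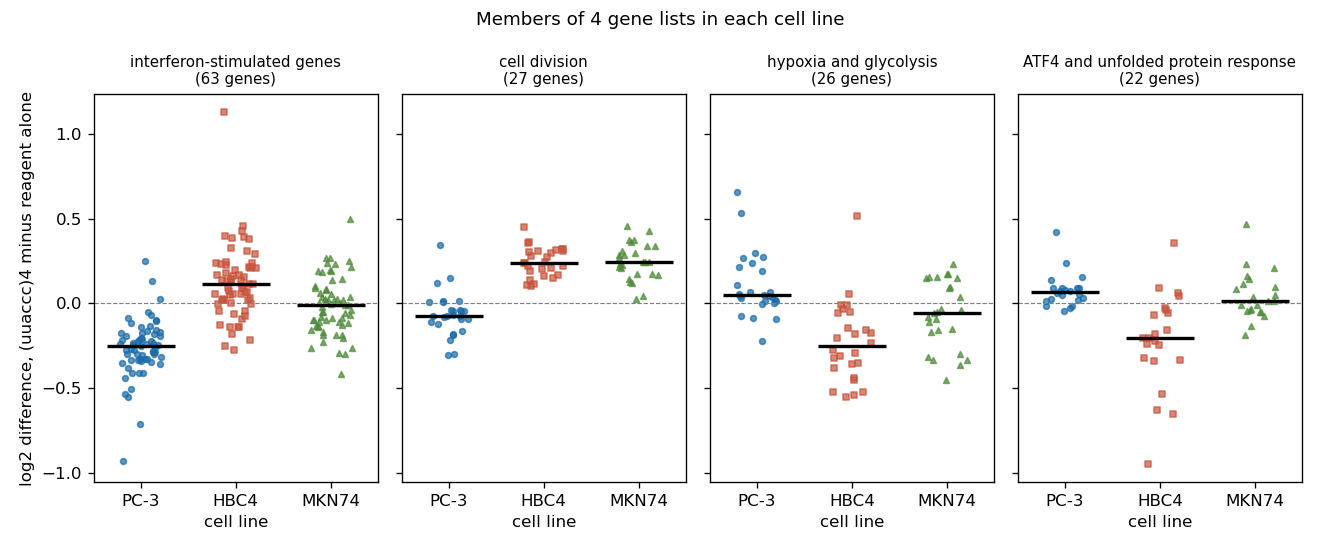
Log2 difference, (uuaccc)4 minus reagent alone, of every measured member of selected gene lists in PC-3, HBC4 and MKN74, 1 point per gene, with a bar at the median. The interferon-stimulated genes lie mostly below 0 in PC-3 (60 of 63), the 27 cell division genes all lie above 0 in HBC4 and MKN74, and hypoxia genes lie mostly below 0 in HBC4 (24 of 26). Of all genes, 54.3% lie below 0 in PC-3 and 50.6% in HBC4, and 49.3% and 47.7% lie above 0 in HBC4 and MKN74.

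In HBC4 several stress-related lists had medians below 0, and the difference from the other lines was not tested for lists. Of all genes, 50.6% were lower with (uuaccc)4 in HBC4. Hypoxia and glycolysis genes were lower with (uuaccc)4 for 24 of 26 in HBC4, with a median log2 difference of -0.25, among them VEGFA (-0.55) and ADM (-0.52), both secreted hypoxia targets, while PGK1, a glycolytic kinase, was higher at 0.52, with 3 of its 6 probe sets sharing the sign of its mean. The list's medians were 0.05 in PC-3 and -0.06 in MKN74. ATF4 and unfolded protein response genes were lower for 18 of 22 in HBC4, with a median of -0.21, against 0.07 in PC-3 and 0.02 in MKN74. Immediate early genes, which follow growth factor and serum signals, were lower for 22 of 27 in HBC4, with a median of -0.19. Their lowest member was CCN2, a secreted matricellular protein, with centred log2 values of 3.00, -1.95 and -0.09 in PC-3, HBC4 and MKN74 with (uuaccc)4, against 3.07, -0.81 and 0.32 with reagent alone. In PC-3 the immediate early list had a median of 0.12 with FOS, a subunit of the AP-1 transcription factor, at 0.75. No gene of these lists was called. For scale, AS1411 minus reagent in HBC4 had medians of -0.30, -0.16 and -0.23 for the hypoxia, ATF4 and immediate early lists. For (uuaggg)4 minus reagent the medians in HBC4 were -0.05, -0.04 and -0.16. These comparisons share the HBC4 reagent array, so the shifts were not particular to (uuaccc)4 in all lists.

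Among the array's own RNA quality probe sets, those of beta-actin differed in HBC4, while those of GAPDH hardly did. The beta-actin control of (uuaccc)4 minus reagent was -0.46 at its 5′ probe set, -0.28 in the middle and -0.07 at its 3′ probe set in HBC4, while the 5′ difference was -0.02 in PC-3 and 0.07 in MKN74. The 3′ minus 5′ value of beta-actin in HBC4 was 0.19 on the (uuaccc)4 array, against -0.20 on the reagent array. On the (uuaggg)4 and AS1411 arrays of HBC4 it was -0.37 and -0.23. That of GAPDH was -0.02 on both the (uuaccc)4 and reagent arrays, and 0.005 and 0.019 on those of (uuaggg)4 and AS1411. The part of RNA quality in the HBC4 lists was not tested.

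Other groups gave small medians with 0 members called. The poly(C)-binding proteins and their KH-domain partners, which bind cytosine-rich single strands, had a median of -0.01 over 15 genes. PCBP1 had centred log2 values of -0.17, -0.16 and 0.48 in PC-3, HBC4 and MKN74 with (uuaccc)4, against -0.16, -0.07 and 0.52 with reagent alone, and PCBP2 had -0.12, 0.11 and -1.82 with (uuaccc)4, against -0.05, 0.05 and -1.89 with reagent alone. For these probe sets of PCBP1 and PCBP2 the widest gap was -0.10, of PCBP1 in HBC4. The 6 probe sets of PCBP2 ranged more widely, from -0.27 to 0.50 in PC-3, -0.44 to 0.26 in HBC4 and -0.12 to 0.36 in MKN74. Other members were wider apart: PCBP3 had differences of 0.30, 0.33 and -0.30, and the list ranged from -0.40 to 0.33 in HBC4. NCL, which codes for nucleolin, had -0.18, -0.02 and 0.12 with (uuaccc)4, against -0.06, -0.14 and 0.03 with reagent alone. The differences of its 2 probe sets were -0.45 and -0.12 in PC-3, -0.04 and 0.12 in HBC4 and 0.09 and 0.38 in MKN74. The shelterin genes TERF1 and TERF2, whose products bind telomeric DNA, had mean log2 differences of 0.05 ± 0.16 and -0.01 ± 0.08, and DHX36, a G4-unwinding helicase, had -0.08 ± 0.24 (SD, n = 3). Medians were 0.02 for G4-binding proteins (22 genes), 0.01 for telomere maintenance (19), -0.02 for RNA decay and RNases (26), -0.05 for p53 targets (22), -0.07 for heat shock chaperones (16), -0.05 for lysosome and autophagy genes (22), 0.01 for NF-kB and inflammatory cytokine genes (26), 0.01 for cholesterol synthesis and uptake (18), -0.04 for nucleolus and ribosome biogenesis (21), -0.03 for metallothioneins and oxidative stress (17) and 0.02 for DNA sensors (15).

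Since no gene passed, the genes with the same sign in all lines are described by size, ranked by their smallest line difference. The 24 so named, 12 in each direction, were chosen from the comparison's own values, which says nothing of whether they differ. CYTH3, an exchange factor for ARF GTPases, had centred log2 values of -1.09, -0.49 and 1.30 in PC-3, HBC4 and MKN74 with (uuaccc)4, against -0.46, 0.21 and 1.87 with reagent alone. ALDH2, the mitochondrial enzyme that oxidises acetaldehyde, had 0.81, -0.36 and -0.67 with (uuaccc)4, against 1.44, 0.26 and -0.12 with reagent alone. In both genes the (uuaccc)4 array was the lowest of the 4 treatments in every line, and the mean log2 differences were -0.63 ± 0.06 and -0.60 ± 0.04 (SD, n = 3) or 1.55-fold and 1.51-fold lower. CYTH3 had 3 of 4 probe sets of the same sign and ALDH2 had a single probe set.

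TRPC6, a calcium-permeable cation channel, had the smallest unadjusted p of the fit, 0.000134, and an adjusted p of 1.00 in limma. Its centred log2 values were -0.27, -0.22 and -0.17 with (uuaccc)4, against 0.15, 0.58 and 0.86 with reagent alone in PC-3, HBC4 and MKN74, and the groups did not overlap. The (uuaggg)4 and AS1411 arrays stood at -0.01 and -0.12 in HBC4 and at 0.01 and 0.07 in MKN74, so the reagent array was the one that stood apart in these lines. Its other probe set had differences of 0.03, -0.37 and -0.02, so the size rests on 1 of 2 probe sets. KCNJ4, an inwardly rectifying potassium channel, had -0.07, 0.33 and 1.16 with (uuaccc)4, against -0.44, -0.06 and 0.55 with reagent alone, and the (uuaccc)4 array was the highest of its line each time, though its other probe set had the opposite mean sign. HOXB6, a homeobox factor, had 0.66, 0.19 and -0.25 with (uuaccc)4, against 0.21, -0.12 and -1.32 with reagent alone. Its other probe set differed by -0.26 in HBC4, so the same sign in all lines rests on 1 of 2 probe sets. MET, the receptor of hepatocyte growth factor, had 0.08, -0.51 and -2.28 with (uuaccc)4, against 0.43, -0.02 and -1.94 with reagent alone, but 2 of its 4 probe sets were higher in PC-3 and 2 in MKN74.

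The remaining genes of this ranking, MKI67 aside, had mean log2 differences of 0.37 to 0.51 where higher, among them GCG (proglucagon), EGR3 (a zinc finger transcription factor) and ATP6V0D2 (a subunit of the vacuolar proton pump), and of -0.47 to -0.38 where lower, among them POSTN and LAMA2 (extracellular matrix proteins), TNFSF15 (a cytokine of the TNF family) and CRLS1 (cardiolipin synthase). The mean sign was shared by 1 of 3 probe sets of ATP6V0D2, 3 of 4 of POSTN and 2 of 4 of LAMA2. For 13 of the 24 the (uuaccc)4 array lay beyond the other 3 treatments in all lines, and for 7 the reagent array did, as for MKI67. Over the 72 gene and line pairs the (uuaccc)4 array was the extreme one in 52 and the reagent array in 46. The ranking itself picks genes in which these 2 arrays lie far apart, so 1 of them is readily the extreme one. These counts follow in part from that choice, and the share over all genes was not computed.

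**Figure D4:**
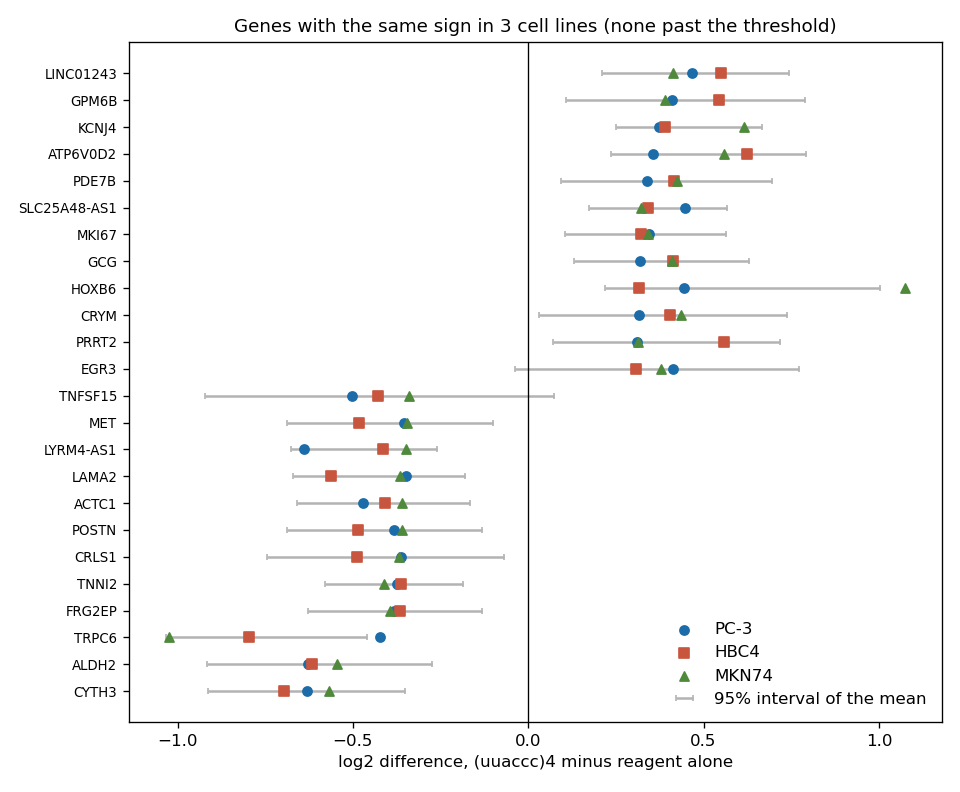
Log2 difference, (uuaccc)4 minus reagent alone, in PC-3, HBC4 and MKN74 for the 12 genes higher and the 12 genes lower in all 3 lines with the largest smallest difference, with bars for the 95% interval of the mean. CYTH3 and ALDH2 have nearly equal differences in the 3 lines, TRPC6 and HOXB6 are widest in MKN74, and none passed the threshold.

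In PC-3 limma's within-line fit called 0 of 19775 genes (0%), with 641 at an unadjusted p under 0.05 and a smallest adjusted p of 1. The spread in that fit came only from the pair of G4 arrays of each line. These arrays had different oligonucleotides and are not replicates, so any difference between their treatments is counted as spread. By size, 3 genes were 2-fold or more higher with (uuaccc)4 (0.0152%) and 4 were lower (0.0202%). The fatty acid receptor gene FFAR4 was higher by 1.08 on the log2 scale, the adhesion molecule gene NECTIN4 by 1.04 and the protease inhibitor gene CST6 by 1.01. SMIM5 (-1.43), FAM83F (-1.40), IVL (-1.36) and EFNA2 (-1.20) were lower, where IVL codes for involucrin of the cornified envelope and EFNA2 for an ephrin ligand. The other probe set of CST6 had the opposite sign (-0.36), and the other probe sets of EFNA2 differed by 0.15 and -0.012. With (uuaccc)4 and reagent, NECTIN4 stood at -3.15 and -4.19, CST6 at -4.73 and -5.73 and FAM83F at -4.33 and -2.94. For these genes PC-3 lay far below the other lines, and centring hides how low the level was. FFAR4 stood above the other lines, at 1.95 and 0.87. SMIM5 stood at -2.48 with (uuaccc)4, against -1.05 with reagent alone, and the G4 arrays stood at -1.03 and -1.08, so the (uuaccc)4 array was apart. IVL stood at -5.17 with (uuaccc)4, against -3.81 with reagent alone, and the G4 arrays stood at -5.27 and -4.80, so here the reagent array was apart.

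In HBC4 0 of 19775 genes were called (0%), with 1065 at an unadjusted p under 0.05 and a smallest adjusted p of 0.722 in limma's within-line fit. By size, 11 genes were 2-fold or more higher (0.0556%) and 11 were lower (0.0556%), counts that became 52 and 49 after quantile normalization and 3 and 2 when the probe sets of a gene were averaged. MIPOL1 (1.37), the kinesin gene KIF21A (1.35), the Slit receptor gene ROBO2 (1.22), the DNA repair gene MGMT (1.16), IFI16 (1.13) and the cohesin subunit gene SMC3 (1.13) were highest. IFI16 stood at 1.44 with (uuaccc)4, against 0.31 with reagent alone, and all 3 of its probe sets were higher, by 0.38 to 1.13. TMEM267 (-1.35), the growth factor gene TGFB2 (-1.25), the sugar transporter gene SLC2A13 (-1.17), CCN2 (-1.14) and the transcriptional coregulator gene CITED1 (-1.10) were lowest. TGFB2 stood at -0.18 with (uuaccc)4, against 1.07 with reagent alone, and the G4 arrays stood at 0.16 and -0.16, nearer to (uuaccc)4. Most of these genes had other probe sets that differed less, from -0.28 to 0.21 for MIPOL1, -0.021 to 0.022 for ROBO2, -0.097 to 0.71 for SMC3, -0.011 to 0.049 for TMEM267, -0.92 to 0.11 for TGFB2 and -0.20 to 0.34 for SLC2A13, and 0.17 for KIF21A.

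In MKN74 0 of 19775 genes were called (0%), with 962 at an unadjusted p under 0.05 and a smallest adjusted p of 0.444 in limma's within-line fit. By size, 27 genes were 2-fold or more higher (0.137%) and 7 were lower (0.0354%), and the 27 became 16 after quantile normalization and 10 with averaged probe sets. MALAT1 stood at 0.46 with (uuaccc)4, against -3.06 with reagent alone, an 11.5-fold difference, and at 0.15 with (uuaggg)4 and -3.51 with AS1411. Of its 12 probe sets 8 were higher with (uuaccc)4, 2 of them by 2-fold or more (3.52 and 2.47), and the lowest was -0.45. In the other lines its difference was 0.34 in PC-3 and -0.41 in HBC4.

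Several genes of MKN74 had the array order of MALAT1. PPP3R1, the regulatory subunit of calcineurin, stood at 0.39 with (uuaccc)4, against -1.17 with reagent alone, and at 0.26 with (uuaggg)4 and -1.44 with AS1411. HMGCS1, an enzyme of cholesterol synthesis, stood at 0.56 with (uuaccc)4, against -0.87 with reagent alone, and at 0.15 and -1.02 with (uuaggg)4 and AS1411, but its other probe set differed by only 0.04. In these genes the (uuaccc)4 and (uuaggg)4 arrays were high and the reagent and AS1411 arrays low. Of the 27 genes, 22 were also higher with (uuaggg)4 than with AS1411, 4 of them by 2-fold or more, where 51.3% of all genes were higher, and of the 7 lower genes 5 were also lower with (uuaggg)4. Pearson's r across 19775 genes between (uuaccc)4 minus reagent and (uuaggg)4 minus AS1411, pairs that share no array, was 0.11 in MKN74, -0.16 in HBC4 and -0.07 in PC-3. For MALAT1, PPP3R1 and HMGCS1 the high arrays were also those given an RNA oligonucleotide, and the low arrays were given no RNA. With 1 array per treatment in the line, receipt of RNA cannot be told apart from a shared handling order or array property. Neither was tested. TMEM255A, in contrast, stood at 1.86 with (uuaccc)4, against 0.28 with reagent alone, and at 0.28 and 0.13 with the G4 oligonucleotides. Lower genes included RPL3L (-1.27), the tubulin-binding protein gene TPPP3 (-1.19), GLIPR1 (-1.11) and the Wnt inhibitor gene NKD2 (-1.05). The other probe sets of GLIPR1 differed by -0.17 to 0.46.

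**Figure D5:**
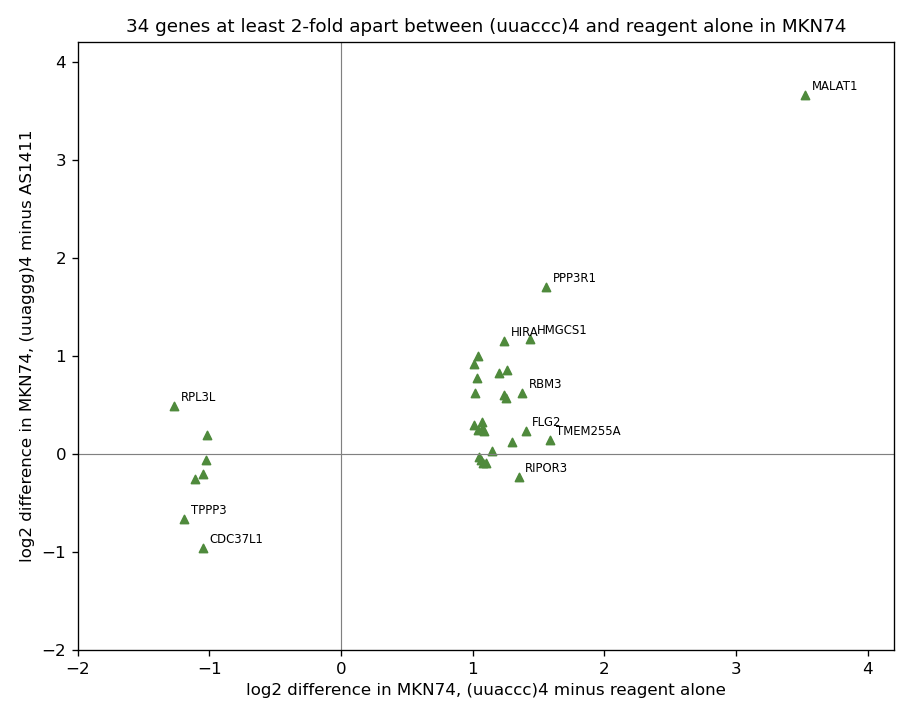
The 34 genes at least 2-fold apart between (uuaccc)4 and reagent alone in MKN74 (horizontal axis, log2 difference), with their log2 difference between (uuaggg)4 and AS1411 in MKN74 (vertical axis). MALAT1, PPP3R1 and HMGCS1 are high on both axes, TMEM255A is high only on the horizontal one, and 22 of the 27 higher genes lie above 0 on the vertical axis.

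In all, 63 genes differed by 2-fold or more in some line and 0 did so in more than 1 line. The test of the difference between lines had 878 genes at an unadjusted p under 0.05 and a smallest adjusted p of 1.00 in limma's fit, and its smallest unadjusted p-values included MIPOL1 and ROBO2, higher in HBC4, and TMEM255A, higher in MKN74.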

How the data were processed

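Total RNA from 12 samples was hybridised to Affymetrix arrays, from 100 ng per sample per the labels' protocols. The deposited values are log2 expression values from RMA, per the submitters' processing notes, which give no version. Every probe set was found to be centred on a median of 0 (largest deviation 5e-07), a step that no source used here describes. Levels, detection calls and depth are therefore unknown, and the number of arrays limits the precision. The base was taken as 2 because values reach 11.2.

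Of 54675 probe sets 62 were controls, 1801 named several genes and 11721 have no name in the table used. Names were taken from GEO's platform annotation, checked against RefSeq GRCh38.p14 identifiers (41037 matched, 0 symbols changed). For the 10523 genes with several probe sets, the one whose 3 line means had the largest SD was used, and averaging is an alternative. limma 3.58.1 in R 4.3.3 fitted treatment with cell line as a block on all 12 arrays (6 residual degrees of freedom). The pairing comes from the cell line named in the labels. The same replicate number stands for the same line, and arrays correlated at 0.892 or more within lines and at -0.174 or less between them. Centring and the choice of probe set by the SD of the line means both widen that gap, so the correlations are no independent check of the pairing. The within-line fit had 3 residual degrees of freedom, from the (uuaggg)4 and AS1411 arrays of each line, and it assumes that the lone arrays vary like these. The labels name no separate cultures within a line. P-values were adjusted by Benjamini-Hochberg over 19775 genes, and the threshold was 0.05. An SD beside a mean is taken over 3 line differences.

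The 21 gene lists (518 genes, 479 measured), the markers and the comparison were chosen with earlier results of these data known, and no list or set was tested. Named genes follow a rule: up to 12 genes per direction past the threshold, filled where fewer passed by genes of 1 sign in the 3 lines ranked by their smallest difference; 6 per direction and line by size; the 6 smallest p-values between lines; the 4 smallest p-values of each list; and 15 further genes, among them RIGI, ISG15, NCL and PCBP1. Other named list members were picked with their values in view. The model was tested on simulated data. Alternatives were normalization, probe set choice, a robust variance prior, a filter on the spread of the line means, thresholds, the block, the arrays fitted and leaving out each array or line. The oligonucleotide sequences are not reported here.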

Additional observations from a re-analysis of the deposited data

Results flagged for a closer look

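The median log2 difference, (uuaccc)4 minus reagent alone, had both signs among the 3 lines in 18 of the 21 gene lists. In 4 of these it was at least 0.1 from 0 on either side. These differences between lines were not tested for the lists. Interferon-stimulated genes had a median of 0.11 in HBC4 and -0.25 in PC-3. DNA replication genes had a median of 0.19 in MKN74 and -0.14 in PC-3. NF-kB and inflammatory cytokine genes had a median of 0.10 in PC-3 and -0.16 in HBC4, and immediate early genes had 0.12 in PC-3 and -0.19 in HBC4. Each value rests on a single pair of arrays per line. In limma's test of the difference between lines 0 of 19775 genes were called, with 878 at an unadjusted p under 0.05.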

How the results depend on the processing

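The count of genes called over the 3 lines, 0, was the same in all 23 alternatives that kept the adjusted threshold. The smallest adjusted p among them was 0.103, without the PC-3 reagent array, where 981 genes had an unadjusted p under 0.05. Without the replicate block for the line, 0 genes were called (44 at an unadjusted p under 0.05), and with the 6 arrays of the comparison alone 0 were called (808). The pairing by line therefore changed no call. At an unadjusted p 248 genes were higher and 319 lower. At 1.5-fold, the counts with no test were 96 higher and 109 lower in PC-3, 180 and 223 in HBC4 and 182 and 174 in MKN74. Quantile normalization gave 52 higher and 49 lower genes at 2-fold in HBC4 and 16 higher in MKN74, and averaged probe sets gave 3 higher and 2 lower in HBC4 and 10 higher and 4 lower in MKN74. The rise in HBC4 after quantile normalization was not particular to (uuaccc)4 against the reagent. There AS1411 against the reagent went from 237 to 469 genes and the pair of G4 arrays from 15 to 77. In PC-3 AS1411 against the reagent went from 220 to 185. The cause of these changes was not tested. The median of the poly(C)-binding list was 0.036 with averaged probe sets, and that of telomere maintenance was -0.016 with averaged probe sets, -0.024 without PC-3 and -0.027 without HBC4. Over 22 settings, 111 of 3356 values of named genes changed sign and 0 passed the threshold. For the lists, over 6 settings, 22 of 126 medians changed sign. Recounting the other treatment pairs under quantile normalization and averaged probe sets was chosen after seeing the data.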
